A study of Mus musculus with 6 samples.

Results

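Transcripts of 10 genes of the interleukin-6 (IL-6), interleukin-1 (IL-1) and NF-kB pathways, most of them parts of feedback loops, were followed in mouse liver after insulin. They were the rows of the count table with the gene names Il6ra, Il6st, Stat3, Socs3, Il1r1, Il1rn, Nfkbia, Tnfaip3, Cebpb and Cebpd, which are 10 of the 54532 genes listed. All 10 were among the 13377 genes that passed the filter on low counts. The libraries came from whole livers of male C57BL/6J mice that had been fed a high-fat diet (HFD) for 6 weeks from 8 weeks of age and were insulin resistant (IR). After a 16 h fast, 3 IR mice received insulin intraperitoneally at 0.75 units per kg body weight (insulin group) and 3 received bovine serum albumin (BSA), its vehicle (vehicle group), and livers were collected 6 h later. Both groups had therefore been on the HFD and had been fasted, and chow-fed mice were not analysed here. The question was whether transcripts of these genes differed between IR livers with and without exogenous insulin.

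IL-6 binds its receptor (encoded by Il6ra) together with the shared chain gp130 (Il6st), and Janus kinases at gp130 then phosphorylate STAT3 (Stat3), which induces Socs3, an inhibitor of the same kinases. IL-1 acts through its type 1 receptor (Il1r1), is blocked by the secreted receptor antagonist (Il1rn) and activates NF-kB, which in turn induces its own inhibitors, IκBα (Nfkbia) and A20 (Tnfaip3). The transcription factors C/EBPβ (Cebpb) and C/EBPδ (Cebpd) act with STAT3 and NF-kB on acute phase genes in hepatocytes.

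The windows before the RefSeq start of a STAT3 feedback gene (Socs3), an NF-kB feedback gene (Nfkbia) and the gene whose level varied most between libraries (Cebpb) are shown because they hold motifs that these pathways are known for and differ in GC content. Each is the 250 bases before the RefSeq transcript start (GRCm38.p6), 5′ to 3′ on the strand of the gene, and capitals mark letters that match a STAT motif (TTCNNNGAA) or an NF-kB motif (GGG and CC separated by 5 bases of any kind), on either strand.
Socs3: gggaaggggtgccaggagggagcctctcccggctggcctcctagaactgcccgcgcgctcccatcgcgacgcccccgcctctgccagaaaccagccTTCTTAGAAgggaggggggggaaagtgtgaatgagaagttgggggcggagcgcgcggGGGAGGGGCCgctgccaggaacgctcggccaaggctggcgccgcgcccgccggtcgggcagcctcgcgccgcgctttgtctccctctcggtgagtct
Nfkbia: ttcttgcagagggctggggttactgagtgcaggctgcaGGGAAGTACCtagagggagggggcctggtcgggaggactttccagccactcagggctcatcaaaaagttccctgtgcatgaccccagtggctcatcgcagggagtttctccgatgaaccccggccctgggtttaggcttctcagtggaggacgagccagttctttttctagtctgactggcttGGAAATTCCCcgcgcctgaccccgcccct
Cebpb: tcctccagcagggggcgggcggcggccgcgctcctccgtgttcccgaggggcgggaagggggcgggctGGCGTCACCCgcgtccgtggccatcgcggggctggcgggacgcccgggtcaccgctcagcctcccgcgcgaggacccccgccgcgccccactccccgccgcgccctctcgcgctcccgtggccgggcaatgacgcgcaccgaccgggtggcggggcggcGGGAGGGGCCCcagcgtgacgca
The windows are chr11:117969367-117969616 (minus strand) for Socs3, chr12:55492648-55492897 (minus strand) for Nfkbia and chr2:167688665-167688914 (plus strand) for Cebpb. The Socs3 window lies inside the span that GENCODE gives this gene, which reaches further upstream, to 117970047, than the RefSeq start. The GC content was 71.6% for Socs3, 59.2% for Nfkbia and 81.6% for Cebpb. Counted back from the transcript start, the STAT match of Socs3 lay at -154 to -146 and its NF-kB match at -97 to -88. The NF-kB matches of Nfkbia lay at -212 to -203 and at -29 to -20. In Cebpb, 1 NF-kB match lay at -182 to -173, and a pair of overlapping matches lay at -23 to -14 and at -22 to -13. Over all 32851 RefSeq windows of this length, 7.02% held the STAT motif, 45.8% the NF-kB motif and 9.56% a C/EBP motif (TTGCNNAA). Of the 13 windows of the members, which belong to 9 genes, 1 held the STAT motif (Socs3), 9 the NF-kB motif and 1 the C/EBP motif (Il1r1). A match describes the letters and is not a binding site.

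None of the 10 genes differed between insulin and vehicle at an adjusted p under 0.05 by the quasi-likelihood test of edgeR with Benjamini-Hochberg adjustment, nor did any of the 13377 genes tested (0% called). The adjusted p of the 10 genes ran from 0.852 to 0.974 in that edgeR test and from 0.527 to 0.9997 over the 13 alternative settings. No member had an unadjusted p under 0.05 in edgeR, in DESeq2 or in limma voom. None met the criteria of the study (unadjusted p under 0.05 and a log2 fold change of 0.35 or more in size), which 2.86% of all genes tested met. Fitted means were higher with insulin for 5 members and lower for 5. Their median log2 fold change was -0.021, and that of all genes tested was -0.017. The values of both groups were fully apart for 1 member, Il1r1, which was lower with insulin, against 12.3% of all genes tested (6.25% with higher and 6.04% with lower insulin values). Values below are CPM (counts scaled by TMM to a common library size), given for replicates 1, 2 and 3 in that order, and gene coordinates are those of GENCODE on GRCm38. Log2 fold changes are of insulin against vehicle ± SE, adjusted p values are those of the edgeR test above, and intervals of a fold difference are at 95%.

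**Figure D1:**
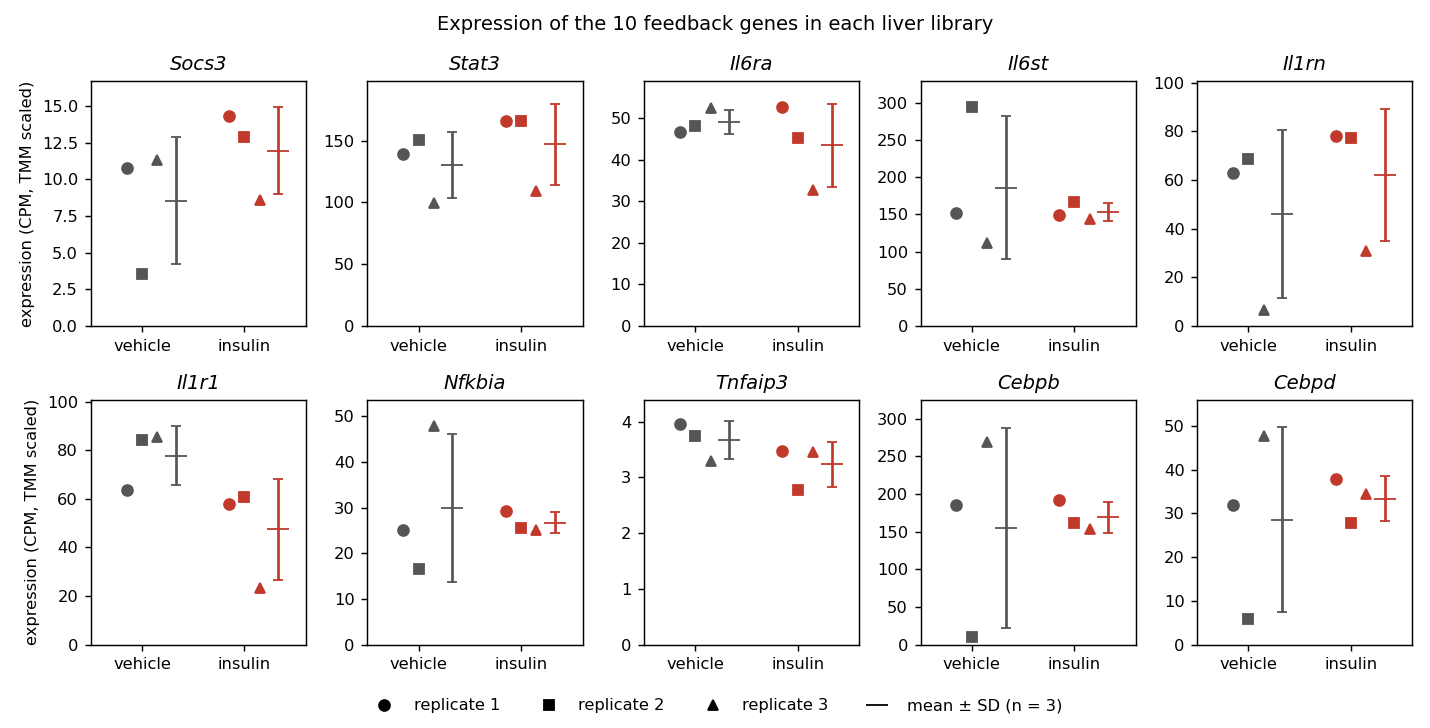
Expression (CPM, TMM scaled) of the 10 genes in each library, by group, with circles, squares and triangles for replicates 1, 2 and 3 and bars for the mean ± SD of 3 mice. Il1r1 is the one gene with all insulin values below all vehicle values, the wide vehicle bars of Cebpb, Cebpd and Socs3 go with a low vehicle replicate 2, and that of Il1rn goes with a low vehicle replicate 3.

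Of the IL-6 receptor chains, Il6ra (ENSMUSG00000027947, chr3:89864059-89913196, minus strand) was at 46.7, 48.1 and 52.4 CPM in the vehicle libraries and at 52.6, 45.2 and 32.7 CPM in the insulin libraries. The vehicle values lay close together, insulin replicate 3 was the lowest of all, and the groups overlapped. The mean was 49.1 ± 2.98 CPM (SD, n = 3) with vehicle and 43.5 ± 10.1 CPM with insulin, a log2 fold change of -0.18 ± 0.24. The adjusted p was 0.868, and the interval ran from 0.605-fold to 1.30-fold. Without insulin replicate 3 the log2 fold change of Il6ra was 0.0048. An antisense gene (Gm42809) shares exonic bases with Il6ra and had at most 6 counts in a library.

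Il6st (ENSMUSG00000021756, chr13:112464070-112510086, plus strand), the signalling chain shared by the cytokines of the IL-6 family, was at 152, 294 and 111 CPM with vehicle and at 149, 167 and 144 CPM with insulin. Vehicle replicate 2 was the highest and vehicle replicate 3 the lowest of the 6, so that the insulin values lay inside the vehicle range. The coefficient of variation between libraries was 51.7% with vehicle and 7.74% with insulin. Insulin differed from vehicle by a log2 fold change of -0.28 ± 0.36 (adjusted p = 0.863), with an interval from 0.463-fold to 1.47-fold. Without vehicle replicate 2 it was 0.22 ± 0.19, in the opposite direction.

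Stat3 (ENSMUSG00000004040, chr11:100885098-100939540, minus strand), the transcription factor that relays the IL-6 signal, was at 139, 150.5 and 99.6 CPM with vehicle and at 165, 166 and 109 CPM with insulin. In each group replicate 3 was the lowest and the other replicates lay higher, and the groups overlapped. The mean was 129.9 ± 26.7 CPM (SD, n = 3) with vehicle and 147 ± 32.6 CPM with insulin. This gave a log2 fold change of 0.18 ± 0.27 (adjusted p = 0.874), with an interval from 0.733-fold to 1.74-fold. An exon of Stat5a lies over Stat3 on the opposite strand, and Stat5a was at 8.58 to 15.5 CPM.

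Socs3 (ENSMUSG00000053113, chr11:117966079-117970047, minus strand), the STAT3-induced inhibitor whose window is printed above, was at 10.8, 3.56 and 11.3 CPM with vehicle and at 14.3, 12.9 and 8.63 CPM with insulin. These values rested on 58 counts in vehicle replicate 2 and on 187 to 318 counts in the other libraries. Insulin replicates 1 and 2 lay above all vehicle values, but insulin replicate 3 lay below vehicle replicates 1 and 3. The mean was 8.55 ± 4.33 CPM (SD, n = 3) with vehicle and 11.9 ± 2.96 CPM with insulin, a log2 fold change of 0.48 ± 0.44. The adjusted p was 0.852, and the interval ran from 0.691-fold to 2.82-fold. This was the largest positive log2 fold change among the members, and without vehicle replicate 2 it was 0.12 ± 0.24.

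Il1r1 (ENSMUSG00000026072, chr1:40225080-40317257, plus strand), the signalling receptor for IL-1, was at 63.7, 84.4 and 85.5 CPM with vehicle and at 58.1, 60.7 and 23.5 CPM with insulin. All insulin values lay below all vehicle values, with insulin replicate 3 far below the rest, and the gap between insulin replicate 2 and vehicle replicate 1 was narrow. The mean was 77.9 ± 12.3 CPM (SD, n = 3) with vehicle and 47.4 ± 20.8 CPM with insulin, a log2 fold change of -0.72 ± 0.37. The interval ran from 0.338-fold to 1.10-fold and so included no difference. By p value Il1r1 stood first among the members and ranked 924 among all genes tested. Its adjusted p in edgeR was 0.852 and ran from 0.529 to 0.9997 over the alternatives. Leaving out 1 library in turn, the log2 fold change stayed between -0.93 and -0.38, the latter without insulin replicate 3.

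Il1rn (ENSMUSG00000026981, chr2:24336853-24351494, plus strand), which encodes the IL-1 receptor antagonist, was at 62.9, 68.8 and 6.53 CPM with vehicle and at 78.1, 77.1 and 30.7 CPM with insulin. Replicate 3 was the lowest in each group, vehicle replicate 3 by far, and both remaining insulin values lay above all vehicle values. The mean was 46.1 ± 34.4 CPM (SD, n = 3) with vehicle and 62.0 ± 27.1 CPM with insulin. Their log2 fold change was 0.43 ± 0.74 (adjusted p = 0.886), with an interval from 0.409-fold to 4.43-fold. Without vehicle replicate 3 it was -0.088 ± 0.40.

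Neutrophil and monocyte markers were lowest in the same library. The summed level of 8 neutrophil markers was 3.72 CPM in vehicle replicate 3, 45.7 and 76.5 CPM in vehicle replicates 1 and 2, and 28.9 to 69.1 CPM with insulin. S100a8, a calcium-binding protein abundant in neutrophils, was at 1.43 CPM in vehicle replicate 3 and at 13.7 to 50.3 CPM elsewhere, and Ly6g, which defines mouse neutrophils, had no count in vehicle replicates 2 and 3. Camp, a granule protein of neutrophils, had no count in any vehicle library or in insulin replicate 2, and 3 counts in each of insulin replicates 1 and 3. Neither Ly6g nor Camp passed the filter on low counts. The 5 monocyte markers summed to 8.63 CPM in vehicle replicate 3 and to 24.9 to 68.4 CPM elsewhere. In bulk liver, fewer cells of a type and less RNA per cell cannot be told apart, and the part of these cells in the Il1rn values was not tested.

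Nfkbia (ENSMUSG00000021025, chr12:55489410-55492647, minus strand), the NF-kB-induced inhibitor of NF-kB, was at 25.1, 16.6 and 48.0 CPM with vehicle and at 29.3, 25.5 and 25.2 CPM with insulin. Vehicle replicate 2 was the lowest and vehicle replicate 3 the highest of the 6, with all insulin values between them. The coefficient of variation was 54.4% with vehicle and 8.61% with insulin. The groups differed by a log2 fold change of -0.16 ± 0.37 (adjusted p = 0.916), with an interval from 0.489-fold to 1.63-fold, and without vehicle replicate 3 it was 0.36 ± 0.26.

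Tnfaip3 (ENSMUSG00000019850, chr10:19000910-19015657, minus strand), which encodes the ubiquitin-editing enzyme A20, was at 3.97, 3.74 and 3.29 CPM with vehicle and at 3.47, 2.77 and 3.46 CPM with insulin. It was the least abundant member, with 61 to 77 counts per library, and its 6 values lay close together with the groups overlapping. The mean was 3.67 ± 0.344 CPM (SD, n = 3) with vehicle and 3.23 ± 0.400 CPM with insulin. Expressed as a log2 fold change this was -0.18 ± 0.29 (adjusted p = 0.878), with an interval from 0.555-fold to 1.40-fold.

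Cebpb (ENSMUSG00000056501, chr2:167688915-167690418, plus strand), a single-exon gene for an acute phase transcription factor, was at 186, 9.945 and 269.7 CPM with vehicle and at 192, 161 and 154 CPM with insulin. Vehicle replicate 2 was far below the rest, at 162 counts against 3330 to 5654, and vehicle replicate 3 was the highest. Between the highest and the lowest library the level differed 27.1-fold. The mean was 155 ± 132.5 CPM (SD, n = 3) with vehicle and 169 ± 20.2 CPM with insulin, a log2 fold change of 0.12 ± 0.86. The adjusted p was 0.974, and the interval, from 0.274-fold to 4.32-fold, was wide. Without vehicle replicate 2 the log2 fold change was -0.43 ± 0.21, and without vehicle replicate 3 it was 0.79. An exon of Tmem189 lies over Cebpb on the opposite strand, and Tmem189 was at 7.24 to 18.6 CPM.

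Cebpd (ENSMUSG00000071637, chr16:15887286-15891031, plus strand), the second C/EBP factor of the set and also a single-exon gene, was at 31.9, 5.89 and 47.8 CPM with vehicle and at 37.8, 27.8 and 34.5 CPM with insulin. The order of the vehicle libraries was that of Cebpb, with vehicle replicate 2 the lowest and vehicle replicate 3 the highest of the 6. The highest and lowest values differed 8.11-fold. For Cebpd the log2 fold change was 0.22 ± 0.61 (adjusted p = 0.929), with an interval from 0.441-fold to 3.09-fold. Without vehicle replicate 2 it was -0.25 ± 0.22, and without vehicle replicate 3 it was 0.82. An exon of Spidr lies over Cebpd on the opposite strand, and Spidr was at 2.61 to 5.22 CPM.

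For 6 of the 10 members, Socs3, Il6st, Il1rn, Nfkbia, Cebpb and Cebpd, the coefficient of variation was larger among the vehicle mice than among the insulin mice, and for Stat3, Il6ra, Il1r1 and Tnfaip3 it was smaller. Vehicle replicate 1 lay within the range of the 3 insulin libraries for 7 members (52.1% of all genes tested), vehicle replicate 2 for 3 members (15.9%) and vehicle replicate 3 for 3 members (29.3%). The deviation of a library is the difference of its log2 CPM from the median over the remaining ones. In vehicle replicate 2 it was -4.21 for Cebpb, -2.53 for Cebpd, -1.64 for Socs3 and -0.62 for Nfkbia, and 0.98 for Il6st. In vehicle replicate 3 it was -3.38 for Il1rn and 0.93 for Nfkbia. Insulin replicate 3 stood lowest for Il1r1, with a deviation of -1.44, and was at -1.16 for Il1rn and -0.56 for Il6ra.

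**Figure D2:**
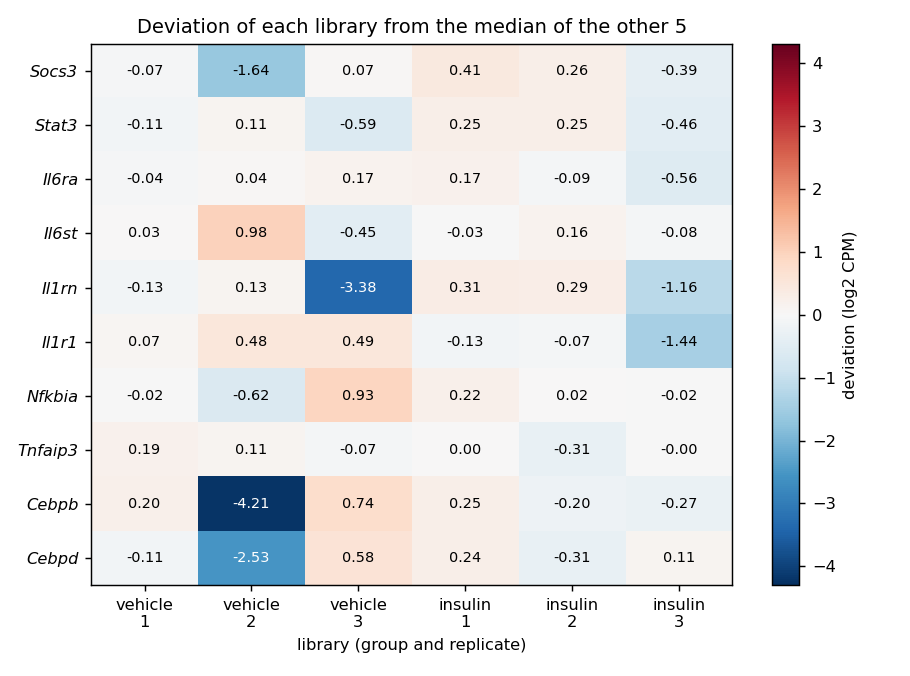
Deviation (log2 CPM) of each library, in columns, from the median of the remaining libraries for each of the 10 genes, in rows, with blue for lower and red for higher. The deepest blue cells are Cebpb (-4.21) and Cebpd (-2.53) in vehicle replicate 2 and Il1rn (-3.38) in vehicle replicate 3.

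Library totals ran from 18449986 to 21827619 counts, and neither vehicle replicate 2 nor vehicle replicate 3 lay outside the totals of the other libraries. Over all genes, the deviations of vehicle replicate 2 had a slope of -1.13 log2 units per 10 percentage points of transcript GC content, against -0.064 to 0.19 in the other libraries. Its hepatocyte (158050 CPM), erythroid (1587 CPM) and B cell (40.8 CPM) marker sums were the highest of the 6, against 55347 to 101700, 312 to 626 and 3.04 to 10.9 CPM elsewhere.

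The members differ in GC content, and in vehicle replicate 2 the GC-rich ones were low. The longest transcript of Cebpb has a GC content of 67.2% and that of Socs3 58.7%, the highest of the set, and both were among the 3 lowest deviations. Cebpd, at 51.6% GC, deviated by -2.53, while Stat3 at 52.5% deviated by 0.11, so members of like GC content differed. When a curve of deviation on GC content was entered per library as an offset, Cebpb was at 155, 43.7 and 205 CPM with vehicle and at 145, 114 and 103 CPM with insulin. Socs3 was then at 10.1, 7.81 and 9.51 CPM with vehicle and at 11.7, 11.3 and 6.97 CPM with insulin. Cebpd was at 31.2, 7.17 and 46.9 CPM with vehicle and at 35.5, 27.0 and 32.4 CPM with insulin. Vehicle replicate 2 thus came nearer to the other libraries for Socs3 and for Cebpb, where it had been at 9.945 CPM without the offset. For Cebpd it changed little, from 5.89 CPM, and it remained the lowest library for Cebpb and Cebpd. With the offset the log2 fold change was 0.13 for Socs3, -0.17 for Cebpb and -0.050 for Stat3, the last pair with the sign turned.

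**Figure D3:**
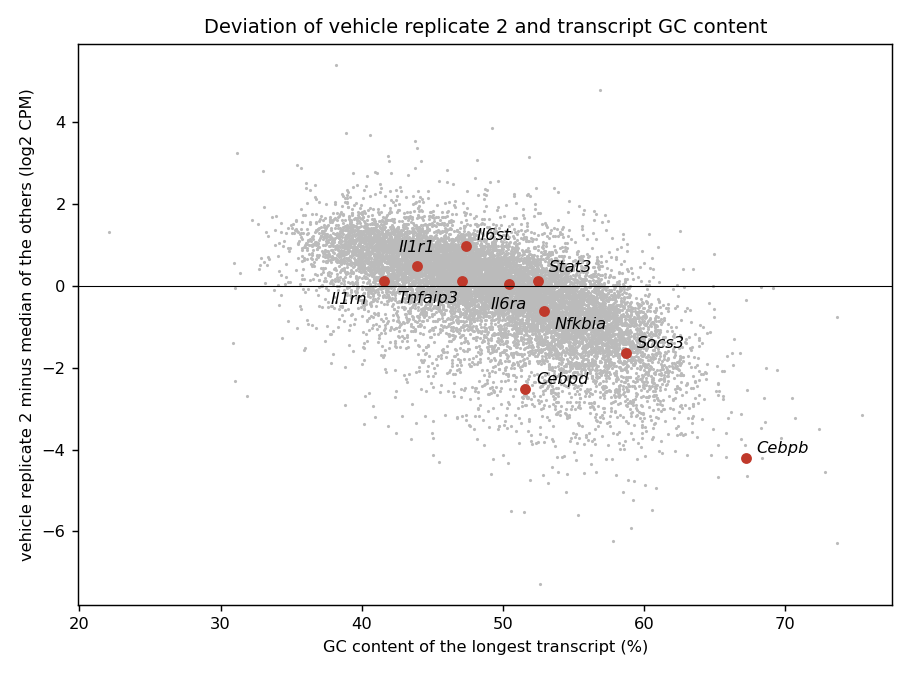
Deviation of vehicle replicate 2 (log2 CPM, from the median over the remaining libraries) against the GC content of the longest transcript (%), with the 10 genes in red and all other tested genes in grey. Cebpb (67.2% GC, -4.21) and Socs3 (58.7% GC, -1.64) are the most GC-rich of the 10 genes, and Cebpb, Cebpd (51.6% GC, -2.53) and Socs3 are the lowest of them.

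Across fits, the direction was kept for Socs3, Il1r1 and Tnfaip3 in all 13 alternatives. It turned in at least 1 alternative for the other 7 members, and for 5 of these (Il6st, Cebpb, Cebpd, Il1rn and Nfkbia) it turned when vehicle replicate 2 or vehicle replicate 3 was left out. No member passed an unadjusted p of 0.05 in any of these fits.

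**Figure D4:**
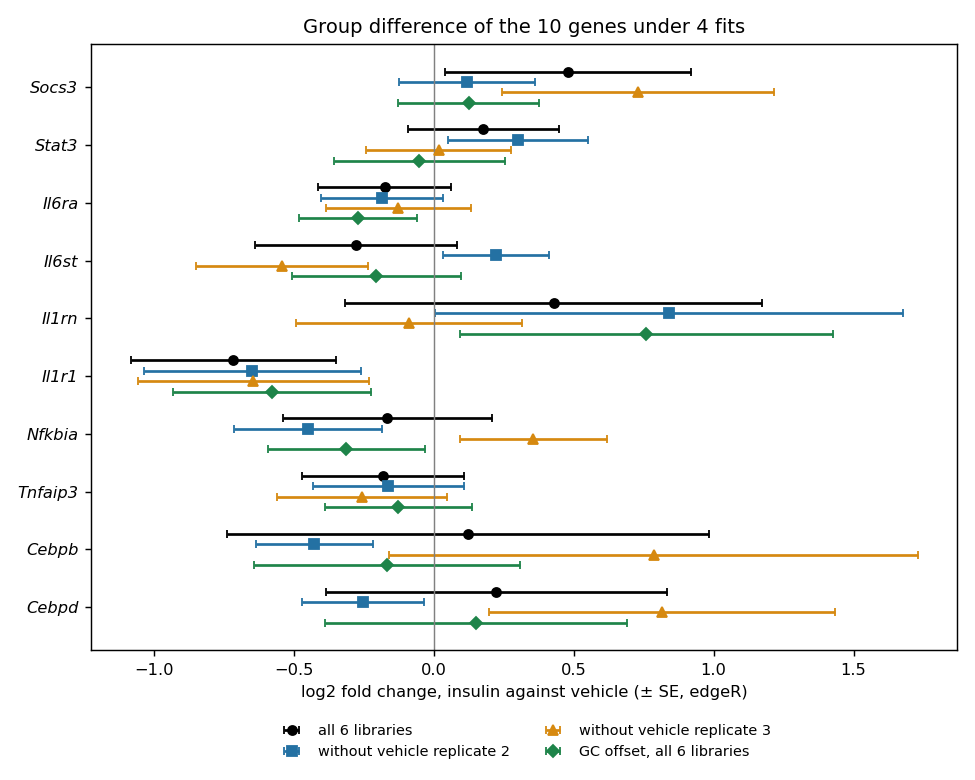
Log2 fold change of insulin against vehicle (± SE, edgeR) of each gene with all 6 libraries (black), without vehicle replicate 2 (blue), without vehicle replicate 3 (orange) and with a GC offset (green). Cebpb moves from 0.12 to -0.43 without vehicle replicate 2 and to 0.79 without vehicle replicate 3, while Il1r1 stays below 0 in all 4 fits.

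Per length of the longest annotated transcript, Cebpb had the highest mean level over the 6 libraries, at 108 CPM per kb (6.61 to 179). Stat3 followed at 22.9 CPM per kb (16.5 to 27.5), Il1rn at 21.1 (2.56 to 30.6), Il6st at 19.5 (12.8 to 33.9) and Nfkbia at 17.9 (10.5 to 30.4). Il1r1 was at 10.8 CPM per kb (4.03 to 14.7), Cebpd at 8.26 (1.57 to 12.8), Il6ra at 5.36 (3.78 to 6.09), Socs3 at 4.02 (1.40 to 5.61) and Tnfaip3 at 0.557 (0.447 to 0.640). The ranges of neighbours in this order overlapped, except that Tnfaip3 lay below all other members in every library. The signalling chain Il6st was thus above the ligand-binding chain Il6ra per length in every library. The receptor antagonist Il1rn was above its receptor Il1r1 by its mean but not by its range. The longest annotated Il1rn transcript, of 2554 bases, has 1 exon, and the level per length of Il1rn rests on that transcript.

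Among the members, Cebpb and Cebpd had the most similar pattern over the 6 libraries, with a Pearson correlation of log2 CPM of 0.991, and of 0.443 over the 4 libraries left without vehicle replicates 2 and 3. The member most like Socs3 was Cebpb, at 0.940 (0.614 over those 4 libraries). For Stat3 it was Il1rn, at 0.905 (0.981 over the 4 libraries), and for Il6ra it was Il1r1, at 0.908 (0.926). Nfkbia was most like Cebpd, at 0.825 (0.673), and Il6st was most like Il1rn, at 0.617 (0.652). In size, the largest correlations of Il6st were negative, at -0.977 with Cebpd, -0.955 with Cebpb and -0.906 with Nfkbia over the 6 libraries. The largest positive correlation of Tnfaip3 with another member was 0.255, with Il6st, and turned to -0.722 over the 4 libraries. Among the 9178 tested genes with a mean of at least 5 CPM, the 3 most like Socs3 were Efna1 (0.999), Med11 (0.996) and the pseudogene Hmgb1-ps2 (0.995), whose reads may be shared with its parent gene. Those most like Nfkbia were Dctpp1 (0.999), Rpl22l1 (0.999) and Hpd (0.998). Over the 4 libraries without vehicle replicates 2 and 3, these 6 correlations ran from 0.963 to 0.9995. These genes and the member pairs were picked by correlation over all 6 libraries, those 4 included. Their values over the 4 libraries are therefore no separate check. The values for Cebpb with Cebpd, Socs3 with Cebpb and Nfkbia with Cebpd were thus lower without both libraries, while those for Stat3 with Il1rn and Il6ra with Il1r1 were not.

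Il6 itself had 3, 2 and 4 counts with vehicle and 1, 2 and 0 counts with insulin. It was 1 of 4 cytokine ligands, with Il11, Osm and Lif, that did not pass the filter on low counts. Of the other 73 genes of the pathways read beside the members, 68 were tested, and 4 met the criteria of the study, 1 of them higher and 3 lower in the insulin group, as did 1% (higher) and 1.86% (lower) of all genes tested. The median log2 fold change of the 68 genes was -0.067. The lists were 9 cytokine ligands, 9 other receptors, 8 JAK-STAT and 11 STAT feedback genes, 9 IL-1 receptor signalling and 3 IL-1 restraint genes, 8 NF-kB subunits and kinases, 12 other NF-kB feedback genes and 4 other C/EBP factors.

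The 3 lower genes all encode receptor chains of these cytokine families. Lifr, the receptor for leukaemia inhibitory factor, which pairs with gp130, was at 182, 406 and 156 CPM with vehicle and at 145, 124 and 119 CPM with insulin, a log2 fold change of -0.94 ± 0.38. Osmr, the oncostatin M receptor and another partner of gp130, was at 5.82, 14.4 and 6.68 CPM with vehicle and at 5.40, 4.29 and 4.66 CPM with insulin, a log2 fold change of -0.90 ± 0.39. Il1rap, the accessory protein that pairs with the IL-1 receptor, was at 132, 269 and 185 CPM with vehicle and at 122, 136 and 107 CPM with insulin, a log2 fold change of -0.69 ± 0.30. All 3 were highest in vehicle replicate 2, as was Il6st. Without that library each had a log2 fold change of -0.38, and none of the 3 met the criteria. Pias3, an inhibitor of activated STAT3, was the gene with higher expression, at 4.86, 2.89 and 3.86 CPM with vehicle and at 7.02, 6.02 and 7.20 CPM with insulin. All its insulin values lay above all vehicle values, and its log2 fold change was 0.80 ± 0.30, or 0.63 without vehicle replicate 2, where it still met the criteria. With the GC offset, Lifr (-0.71) and Osmr (-0.76) met the criteria, and Il1rap (-0.44) and Pias3 (0.52) did not. With voom, Lifr (-0.50) was the one of these 4 that met them. For all 4 the adjusted p of the edgeR test was 0.852.

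In the lists with no gene past these criteria, the gene with the smallest p is given (adjusted p from 0.852 to 0.881 in edgeR). Among the ligands Tnf, which activates NF-kB, had 14, 5 and 0 counts with vehicle and 36, 32 and 14 counts with insulin (log2 fold change 1.80 ± 0.93). Jak1, a kinase bound to gp130, had a log2 fold change of -0.35 ± 0.29. Irak2, a kinase of the IL-1 receptor complex, had 0.54 ± 0.31, and Chuk, an IκB kinase, had -0.57 ± 0.33. Nfkbie, an inhibitor related to Nfkbia, had 0.82 ± 0.43, and Ddit3, a stress-induced C/EBP factor, had 1.20 ± 0.62. Irak3, which restrains IL-1 receptor signalling, was at 17.3, 18.8 and 1.14 CPM with vehicle and at 20.98, 21.6 and 9.46 CPM with insulin (0.49 ± 0.81). Its low values lay in the same libraries as those of Il1rn.

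**Figure D5:**
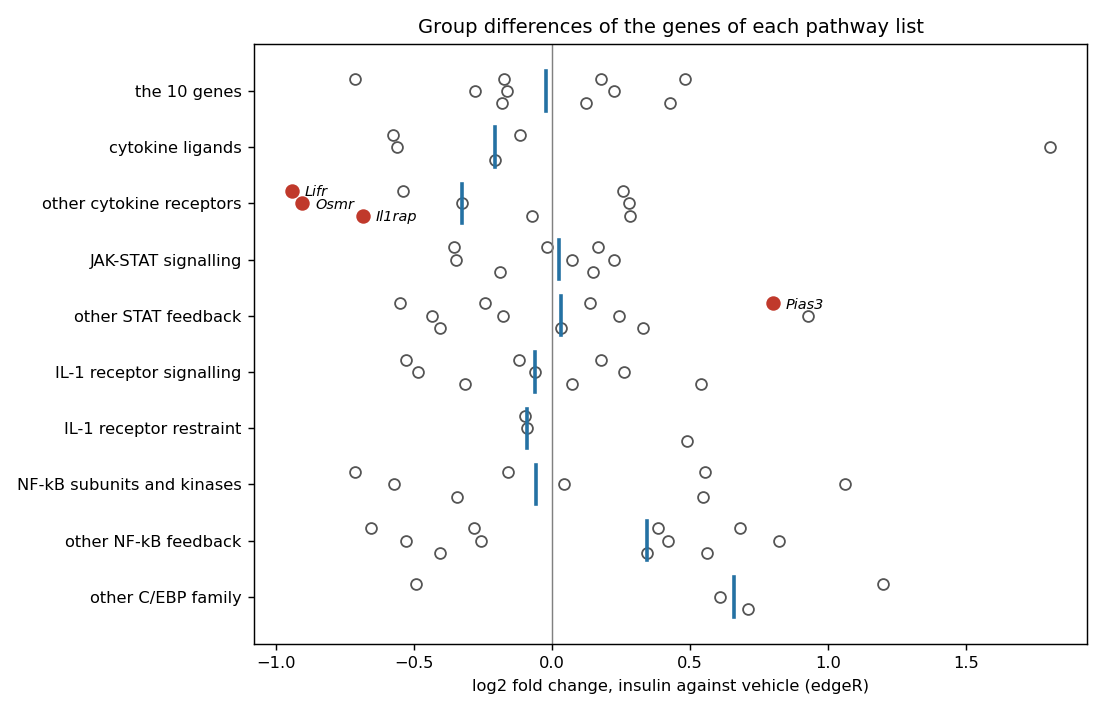
Log2 fold change of insulin against vehicle (edgeR) of each tested gene, 1 circle a gene, for the 10 genes and each pathway list, with a blue bar at the median of the list. Filled red circles are the 4 genes past the criteria of the study: Lifr (-0.94), Osmr (-0.90) and Il1rap (-0.69) among the receptors and Pias3 (0.80) among the STAT feedback genes.

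A pair of acute phase genes known as targets of these factors in hepatocytes were read beside the members. Saa1, which encodes serum amyloid A, was at 4369.5, 252 and 217 CPM with vehicle and at 5070.2, 4570.1 and 6803 CPM with insulin, a log2 fold change of 1.76 ± 1.07 (adjusted p = 0.852). Lcn2, which encodes lipocalin 2, was at 1963, 179.9 and 26.8 CPM with vehicle and at 1335, 1441 and 1715 CPM with insulin (1.05 ± 1.17, adjusted p = 0.855). Both were low in vehicle replicates 2 and 3 and high in vehicle replicate 1 and the insulin libraries. Without vehicle replicate 1, the vehicle library where both were high, the log2 fold change was 4.55 ± 0.36 for Saa1 (adjusted p = 0.114) and 3.86 ± 0.84 for Lcn2 (adjusted p = 0.473). It was smaller than with all libraries without vehicle replicate 2 (1.26 for Saa1 and 0.59 for Lcn2) and without vehicle replicate 3 (1.25 and 0.48). With the GC offset it was 1.65 for Saa1 and 0.90 for Lcn2. With the replicate block it was 3.34 for Saa1 and 2.88 for Lcn2, and over all alternatives the adjusted p of Saa1 ran from 0.114 to 0.9997. No member had that order: Cebpb, Cebpd and Nfkbia were the highest, not low, in vehicle replicate 3, and Stat3 and Il1rn were not low in vehicle replicate 2.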

How the data were processed

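Liver RNA of 6 mice was sequenced, 1 library per mouse, and the labels gave each library its group and replicate number. The authors deposited raw counts of reads for every gene, neither scaled nor pooled. Per the methods of the study and the submitters' processing notes, reads were aligned to mm10 with Bowtie2 2.2.3. The counting program and any use of strand are not given in the sources used here, so reads of overlapping genes cannot be told apart. All sample columns were used.

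Counts were tested in edgeR 4.0.16 under R 4.3.3 by its quasi-likelihood F test, with TMM scaling, filterByExpr (minimum count 10, minimum total 15), no covariate and Benjamini-Hochberg adjustment over 13377 genes. Standard errors came from the F statistic. The study used DESeq2, which was run as an alternative (1.42.0), beside limma 3.58.1 voom with sample quality weights, RLE and upper-quartile factors, no filter, a replicate block, a GC offset (loess span 0.5) and leaving out each library. The edgeR step was also run on simulated counts with the same spread for all genes and no outlying library. These data differ in both respects, so that run does not show how the test behaves on them. A count of 10 corresponded to 0.487 CPM, and the biological coefficient of variation was 0.357.

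Coordinates, transcript length and GC content came from GENCODE release M 21, in which 54495 of the 54532 genes were found by identifier, and upstream windows from RefSeq. Correlations used log2 CPM with a prior count of 2. All members were named, with, of each pathway list, the genes past the criteria of the study or else the gene with the smallest p, the 3 genes most like Socs3 and Nfkbia, and Saa1 and Lcn2. Marker sums of Kupffer, T and NK, sinusoidal endothelial, stellate and bile duct cells were also read: with vehicle they were 268 to 380, 3.10 to 3.56, 140 to 259, 227 to 295 and 19.8 to 45.4 CPM, and with insulin 286 to 550, 1.61 to 3.24, 149 to 163, 176 to 311 and 23.0 to 50.8 CPM. The members and lists were chosen with earlier results of these data known.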

Additional observations from a re-analysis of the deposited data

How the results depend on the processing

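No member passed an adjusted p of 0.05 or the criteria of the study under any of the 13 alternatives. The sign of a member's log2 fold change turned with the GC offset for Stat3 (-0.050) and Cebpb (-0.17), with voom for Il6st (0.067), without vehicle replicate 2 for Il6st (0.22), Cebpb (-0.43) and Cebpd (-0.25), without vehicle replicate 3 for Il1rn (-0.088) and Nfkbia (0.36), and without insulin replicate 3 for Il6ra (0.0048). Over the fits with 1 library left out, the log2 fold change ran from -0.33 to 0.0048 for Il6ra, -0.54 to 0.22 for Il6st, -0.088 to 0.84 for Il1rn, -0.45 to 0.36 for Nfkbia, -0.43 to 0.79 for Cebpb and -0.25 to 0.82 for Cebpd. Leaving out 1 library, the median log2 fold change of the members ran from -0.17 (without vehicle replicate 2) to 0.097, against -0.021 with all 6. The number of members with groups fully apart then ran from 1 to 4. The 4 came without insulin replicate 3 (Socs3, Stat3 and Il1rn higher and Il1r1 lower), where 19.2% of all genes were apart. Without vehicle replicate 3 there were 3 (Nfkbia higher, Il1r1 and Tnfaip3 lower; 31% of all genes), and without insulin replicate 1 there were 2 (Il6ra and Il1r1 lower; 18%).

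The count of 4 other pathway genes past the criteria of the study was 2 with upper-quartile factors, 7 without the filter, 2 with the GC offset and 1 with voom. It ran from 0 (without any 1 insulin library) to 14 (without vehicle replicate 1) with a library left out, and was 1 without vehicle replicate 2. The cause was not tested. Over all genes, the 383 past these criteria (134 higher, 249 lower) became 92 higher and 379 lower with the GC offset, 108 and 105 with voom, and 146 and 203 with upper-quartile factors.

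Over all genes, vehicle and insulin libraries of the same replicate number had small correlations of their deviations from the group mean (-0.039, 0.069 and 0.017). Those of unlike number ran from -0.11 to 0.089. The labels do not say whether the numbers pair the mice. With 3 libraries a group, small correlations cannot exclude a pairing. With the replicate block no member passed the criteria, their median was 0.074, and 4 pathway genes passed, of which 1 (Pias3) had passed without the block. Over all genes 321 passed, 203 higher and 118 lower. Spread between the libraries of a group limits what could be detected, and the part of any single library in this was not tested. The genes past the criteria numbered 1349 without vehicle replicate 1, 508 without vehicle replicate 2 and 888 without vehicle replicate 3. Without an insulin library they numbered 99 to 143. The intervals of Cebpb, Cebpd and Il1rn include 2-fold differences in either direction. With 1 library per mouse, spread between mice and spread between library preparations cannot be told apart.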
